A study of Sus scrofa with 67 samples.

Results

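Of the 25322 Ensembl genes counted in endometrium, ovary and oviduct of cycling gilts, 320 form the subject here. They met a limit on the fall from oestrus to mid-cycle in the endometrium and in the ovary, and did not meet it in the oviduct. They were chosen on CPM, the count of a gene scaled to a common library total. For each tissue the mean CPM of day 9 plus 1 was divided by the mean CPM of day 0 plus 1. A ratio of 0.5 or less was required in endometrium and in ovary, and a ratio above 0.5 and under 2 in oviduct. The limit was met by 1618 genes in endometrium, 2276 in ovary and 456 in both. Of these 456, 94 were also at 0.5 or less in the oviduct and 42 were at 2 or more there, which leaves the 320. In the oviduct 217 of the 320 had a ratio of 1 or more, so that the rest were lower on day 9 there too, by less than the limit. A gene symbol was at hand for 217 of the 320, and the other 103 are known here only by their Ensembl identifier. Since the libraries of days 0 and 9 chose the genes, their values are given as a description without a test, and tests are given for days 3, 6, 12 and 18.

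RNA was sequenced from untreated Landrace × Yorkshire gilts of similar age on 7 days of the oestrous cycle, every 3 days from day 0, when oestrous behaviour began, to day 18. The table holds 66 libraries, 22 from each tissue, with 3 for each tissue and day except 2 for ovary on day 3 and oviduct on day 6, and 4 for endometrium on day 15 and for ovary and oviduct on days 12 and 15. Endometrium was freed of myometrium, oviduct was the ampulla, and a whole ovary was used, with its follicles, corpora lutea and stroma together. The 3 tissues were taken from the same gilts, 3 on each day, so that a group of 4 libraries held more libraries than gilts. Libraries are named by their number in the table, which was not tied to a gilt in the sources used here. The p-values therefore measure the spread between these samples, and with groups of 4 they can be too small.

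Library totals ran from 8962103 to 13442083 counts, so that 3 counts corresponded to 0.223 to 0.335 CPM. The granulosa markers FSHR and INHA summed to at most 0.712 CPM in every endometrium library and to between 33.6 and 8189.6 CPM in ovary. Ovary libraries of a day differed widely. On day 12, library 1 had a summed level of the luteal markers CYP11A1 and LHCGR of 207 CPM against 5185 to 9088 CPM in the other 3, and a summed level of 5 smooth muscle markers of 4462 CPM against 271 to 385 CPM. Both CYP11A1 and LHCGR are also on the list of follicle and steroid synthesis used below, so their sum is not particular to corpora lutea. On day 0, the leukocyte markers PTPRC, CD68 and CSF1R summed to 476, 318 and 32.7 CPM in libraries 1, 2 and 3. Their part in the ovary results below was not tested, and in bulk tissue fewer cells of a type and less RNA per cell cannot be told apart.

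At oestrus the ovary carries large follicles that release oestradiol, and after ovulation the corpora lutea release progesterone, which dominates until the corpora lutea regress late in the cycle. In the endometrium, the time around oestrus is known for leukocytes in the stroma and for turnover of the extracellular matrix, the fibrous scaffold and basement membrane on which epithelium and stroma rest. The oviduct is lined by many cells with motile cilia, which move fluid and gametes. The genes described here include parts of all 3 of these systems.

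The level of the 320 genes was high on days 0 and 3 in the endometrium, low on days 6 and 9, and high again on day 18. The median of log2(CPM + 1) over the genes was 4.89, 4.60 and 4.95 in the day 0 libraries of the endometrium, 4.88, 5.05 and 4.59 on day 3, 3.35, 3.32 and 3.30 on day 6, and 3.30, 3.31 and 3.13 on day 9. On day 18 it was 4.37, 4.50 and 4.78, above all libraries of days 6 to 15. In the ovary the medians were 5.47, 5.24 and 4.05 on day 0, 4.24 and 2.77 on day 3, and 2.81 to 2.90 on day 6. They were 3.41, 3.05 and 2.99 on day 9 and 4.76, 4.21 and 5.39 on day 18. The ovary libraries of days 0, 3, 12, 15 and 18 thus did not form tight groups: library 3 of day 0 lay 1 log2 unit or more below the other 2, and library 1 of day 12 stood at 4.26 against 2.95 to 3.00 in the rest of that day. All oviduct libraries lay between 3.97 and 4.73.

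**Figure D1:**
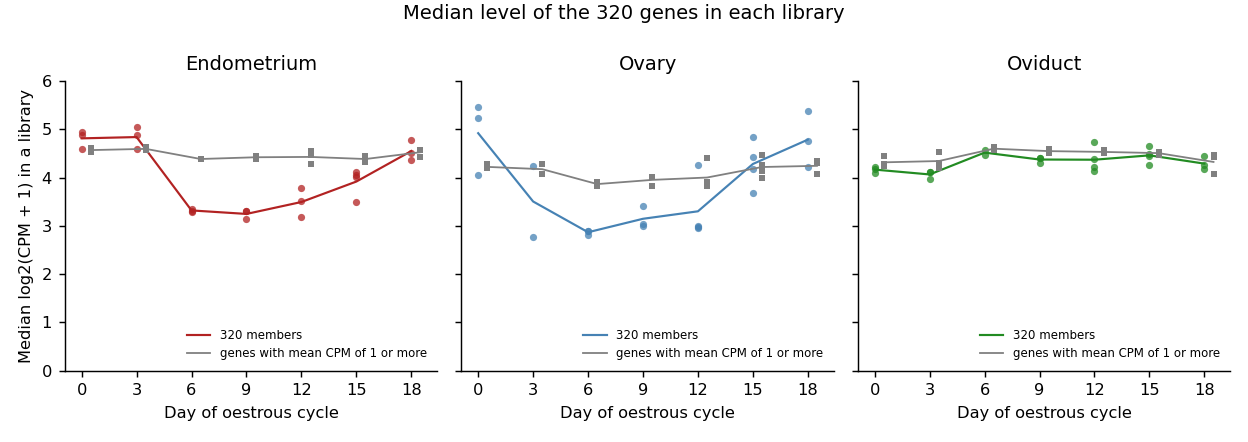
Median log2(CPM + 1) of the 320 genes in each library by day of the cycle, in 3 panels for endometrium, ovary and oviduct. Dots are libraries, the line joins the day means and grey squares give the same median over genes with a mean of at least 1 CPM. The endometrium is low from day 6 to day 12, the ovary spreads widely on days 0, 3, 12, 15 and 18, and the oviduct stays between 3.97 and 4.73.

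Relative to day 0, the median ratio of the genes in the endometrium over days 3, 6, 9, 12, 15 and 18 was 1.08, 0.411, 0.385, 0.455, 0.549 and 0.768 in turn. In the ovary it was already 0.374 on day 3 and 0.257 on day 6, the lowest of the series, then 0.301, 0.389, 0.644 and 0.826 on days 9, 12, 15 and 18. On day 6, 246 of the 320 were at 0.5 of day 0 or below in endometrium against 8.96% of genes. On day 3, 231 were so in ovary against 10.6%. Both shares are over genes with a mean of at least 1 CPM on some day of the tissue. All of these ratios share the day 0 libraries that chose the genes, so that the counts are not independent of the choice. In oviduct the medians stayed between 0.944 and 1.24. CPM is relative to the library. Over all genes with a mean of at least 1 CPM on some day of the tissue, the median ratio of day 9 to day 0 was 0.914 in endometrium, 0.806 in ovary and 1.19 in oviduct. Scaling by the trimmed mean of M values (TMM), which sets the typical gene near no change, the same rule gave 224 genes, of which 212 were among the 320.

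The day 9 to day 0 ratios ran from 0.00712 to 0.5 in endometrium with a median of 0.385, and from 0.0164 to 0.5 in ovary with a median of 0.301. In oviduct they ran from 0.507 to 1.99 with a median of 1.18. Many genes lay near a limit. C8orf58 was just inside in endometrium at 0.4995 and ANTXR2 just outside at 0.501. KIF19, a cilium motor gene, was just inside in ovary, and LTF, which encodes lactoferrin, just outside at 0.5003 although its endometrium ratio was 0.0432. In the oviduct, MYH11 (0.507) and FGD2 (1.99) were just inside and CCDC82 (2.01) just outside.

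At oestrus the ovary was the tissue with the highest level for 185 of the 320 genes, the oviduct for 71 and the endometrium for 64. The oviduct was the lowest of the 3 for 203 genes. The median mean CPM on day 0 was 27.9 in endometrium, 36.5 in ovary and 16.7 in oviduct, and on day 9 it was 8.82, 8.25 and 20.1. On day 9 the oviduct was the highest tissue for 191 genes. Since days 0 and 9 chose the genes, nothing is read from this shift between tissues.

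Libraries of day 0 lay above all day 9 libraries for 296 of the 320 genes in endometrium, beside 32.7% of all genes tested, and for 203 in ovary, beside 33.3%. In oviduct this held for 35, beside 9.26%. The day 0 libraries of the ovary were not alike in this. Library 1 alone was above the day 9 libraries for 302 genes, library 2 for 304 and library 3 for 230, beside 54.5%, 50.3% and 53.9% of all genes tested. These are the libraries that chose the genes, and nothing is read from the counts. By role, for 44 leukocyte genes the counts were 44, 44 and 9, for 19 matrix genes 16, 19 and 16, and for 11 cilium genes 8, 11 and 10. The role groups were put together after the 320 genes were known and serve as a description.

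Between days 3 and 6, which took no part in the choice of the genes, 201 of the 320 genes fell in the endometrium and 0 rose, beside 10% and 8.86% of all genes tested (edgeR quasi-likelihood test over all genes, Benjamini-Hochberg adjusted p below 0.05). All 320 passed the filter on low counts in endometrium and ovary, and 314 did so in oviduct. The median log2 fold change (FC) of day 6 over day 3 was -1.49, against -0.01 over all genes tested, and 310 genes had a value of 0 or below. For 267 genes all day 3 libraries lay above all day 6 libraries, beside 29.3% of all genes. The endothelial marker PECAM1, which is not among the 320, was at 193, 152 and 250.2 CPM on day 3 and at 85.3, 79.1 and 94.9 CPM on day 6 (log2 FC -1.01 ± 0.39, adjusted p = 0.0759, edgeR), without overlap, and its part in these values was not tested. Among genes with a symbol 137 of 217 fell, and among those without one 64 of 103.

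In the ovary, 0 of the 320 genes passed the same edgeR test between days 3 and 6 in either direction, beside 0% of all genes. At an unadjusted p below 0.05, 12 genes were lower and 3 higher, beside 1.93% and 4.25%, and DESeq2 called 1 lower, beside 6 of 15638 genes tested. Day 3 had only 2 ovary libraries, and the day 3 libraries were above those of day 6 for 93 genes, beside 36.9% of all genes. The median log2 FC was -0.36, and it was 0.35 when day 3 library 1 was left out. In the oviduct 0 genes were called in either direction by edgeR between days 3 and 6, beside 0% of all genes, with 14 lower and 22 higher at an unadjusted p below 0.05 (4.4% and 3.26% of all genes) and a median log2 FC of 0.06. All day 3 libraries of the oviduct were above those of day 6 for 6 genes, beside 3.62%.

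**Figure D2:**
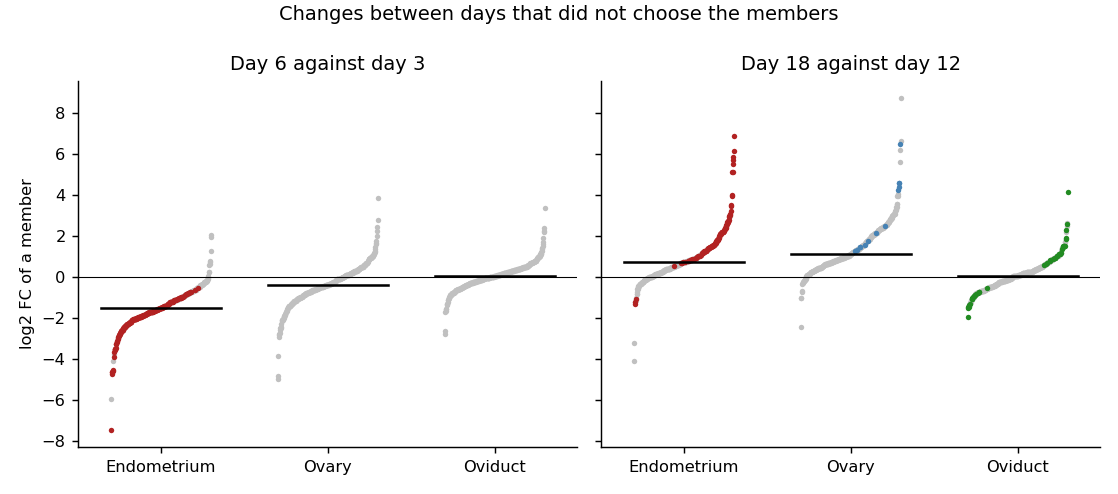
Log2 FC of each of the 320 genes, sorted within each tissue, for day 6 over day 3 (left) and day 18 over day 12 (right) in endometrium, ovary and oviduct. Coloured points passed an adjusted p of 0.05 in the edgeR test and the black bar is the median. The endometrium has 201 coloured points below 0 at the left and 107 above 0 at the right, while the ovary has none at the left and 13 at the right.

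The largest of the role groups was made of leukocyte genes, 21 for receptors and adaptors and 23 for signalling and effector proteins. In the endometrium 42 of these 44 fell from day 3 to day 6, beside 10% of all genes tested. The median log2 FC of the 44 was -2.0, with a range from -3.23 to -1.21. For all 44 the day 3 libraries lay above those of day 6, beside 29.3% of all genes tested. The summed level of the 44 genes was 1236, 1587 and 800.2 CPM on day 3 and 337, 262 and 234 CPM on day 6. The lowest day 3 library was well above the highest day 6 library. The leukocyte markers PTPRC, CD68 and CSF1R, of which the last 2 are among the 44, summed to 91.8, 148 and 57.1 CPM on day 3 and to 31.3, 20.3 and 21.1 CPM on day 6.

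CD68, a lysosomal glycoprotein of macrophages, was at 24.4, 36.7 and 13.1 CPM on day 3 and at 5.59, 4.71 and 4.82 CPM on day 6 in the endometrium. All 3 libraries of day 3 were above those of day 6. The log2 FC was -2.09 ± 0.31 (SE, adjusted p = 0.000315, edgeR). TYROBP, an adaptor that couples receptors of myeloid and natural killer cells to kinases, was at 47.0, 47.4 and 27.6 CPM on day 3 and at 8.97, 6.84 and 5.26 CPM on day 6. The groups again did not overlap, and the log2 FC was -2.34 ± 0.38 (adjusted p = 0.000549, edgeR). ITGB2, the common chain of the leukocyte integrins, went from 64.4, 78.9 and 29.2 CPM to 12.7, 12.9 and 10.8 CPM, a log2 FC of -2.05 ± 0.46 (adjusted p = 0.00456, edgeR). These 3 calls held under every alternative setting tried. CSF1R, the receptor of macrophage colony-stimulating factor, did not pass the test (log2 FC -1.69 ± 0.87, adjusted p = 0.193, edgeR), nor did STX11, a membrane fusion protein of cytotoxic granules (adjusted p = 0.0698).

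CSF3R, the receptor of granulocyte colony-stimulating factor, was at 10.9, 18.8 and 3.32 CPM on day 3 and at 0.739, 1.39 and 0.892 CPM on day 6 in the endometrium. Its log2 FC of -3.23 ± 1.03 was the lowest of the 44 (adjusted p = 0.0348, edgeR). The call was lost in 6 of 11 alternative settings, among them without day 3 library 1 or 2 or any library of day 6, with an adjusted p of up to 0.119. IL7R, the receptor of interleukin 7 on lymphoid cells, fell by 1.94 on the log2 scale (SE 0.49, adjusted p = 0.00909, edgeR), from 7.42, 9.92 and 7.38 CPM to 2.32, 2.31 and 0.981 CPM.

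Late in the cycle, between days 12 and 18, 5 of the 44 leukocyte genes rose in the endometrium, beside 9.43% of all genes tested, and 32 had a log2 FC above 0. For 9 of the 44 all day 18 libraries were above all day 12 libraries, beside 20.4% of all genes. Both counts were close to the shares of all genes. The markers PTPRC, CD68 and CSF1R summed to 28.9, 22.9 and 25.5 CPM on day 12. On day 18 they summed to 21.1, 29.3 and 43.4 CPM, with overlap. The 5 were CSF3R, STX11, the chemokine receptor gene CCR1, the lipopolysaccharide co-receptor gene LY96 and the adaptor gene DOK1, and the median log2 FC was 0.27. The summed level of the 44 genes was 358, 255 and 320.3 CPM on day 12 and 389.6, 410.2 and 567 CPM on day 18, so that the day 18 libraries were above those of day 12 and below all libraries of day 3. They overlapped those of day 0, which were at 896, 447 and 889 CPM. The log2 FC of the 4 other than CSF3R ran from 1.42 ± 0.29 for DOK1 (adjusted p = 0.00468, edgeR) to 2.13 ± 0.66 for STX11 (adjusted p = 0.0315, edgeR). For CSF3R it was 3.03 ± 0.98 (adjusted p = 0.0362, edgeR), with one day 18 library at 31.2 CPM and the others at 4.12 and 11.3 CPM. This call was lost in 6 of 11 settings, among them without day 12 library 2 or 3 or day 18 library 1 or 3, with an adjusted p of up to 0.184.

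Of 8 genes for antigen presentation and lysosomal proteases, 7 fell in the endometrium from day 3 to day 6, beside 10% of all genes tested. The median log2 FC over the 8 was -1.57. CTSS, cathepsin S, which trims the invariant chain of class II molecules, had a mean of 194 CPM on day 3 and 37.0 CPM on day 6 (log2 FC -2.19 ± 0.31, adjusted p = 0.000239, edgeR). SLA-DMA and SLA-DMB, the 2 chains of the class II peptide loading factor, had log2 FCs of -1.63 ± 0.27 and -1.87 ± 0.30. CTSZ did not pass (-0.79 ± 0.28, adjusted p = 0.0577, edgeR). From day 12 to day 18, 3 of the 8 rose, beside 9.43% of all genes tested. They were CTSH (2.22 ± 0.34), LGMN (1.42 ± 0.21) and ERAP2 (0.97 ± 0.27), which encode a cathepsin, legumain and an enzyme that trims peptides for class I molecules.

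Of 5 complement genes, 4 fell in the endometrium between days 3 and 6, beside 10% of all genes tested. C1QA, of the recognition subunit of the classical pathway, had a log2 FC of -2.34 ± 0.41, and C2 and CFB, the proteases of the classical and the alternative convertase, had -2.71 ± 0.43 and -2.93 ± 0.43. CFI, the protease that inactivates C3b and C4b, went from a mean of 501 CPM to 54.0 CPM (log2 FC -3.02 ± 0.39, adjusted p = 0.00012, edgeR). C4A did not pass (-0.74 ± 0.50, adjusted p = 0.333, edgeR). CFI and CFB rose again from day 12 to day 18, by 2.28 ± 0.38 and 2.73 ± 0.44 on the log2 scale (adjusted p = 0.00219 and 0.00189, edgeR), while C1QA was at -0.23 ± 0.39. The genes named from the antigen presentation and complement groups, and STX11, CCR1, LY96 and DOK1, were picked as examples after their values were seen.

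**Figure D3:**
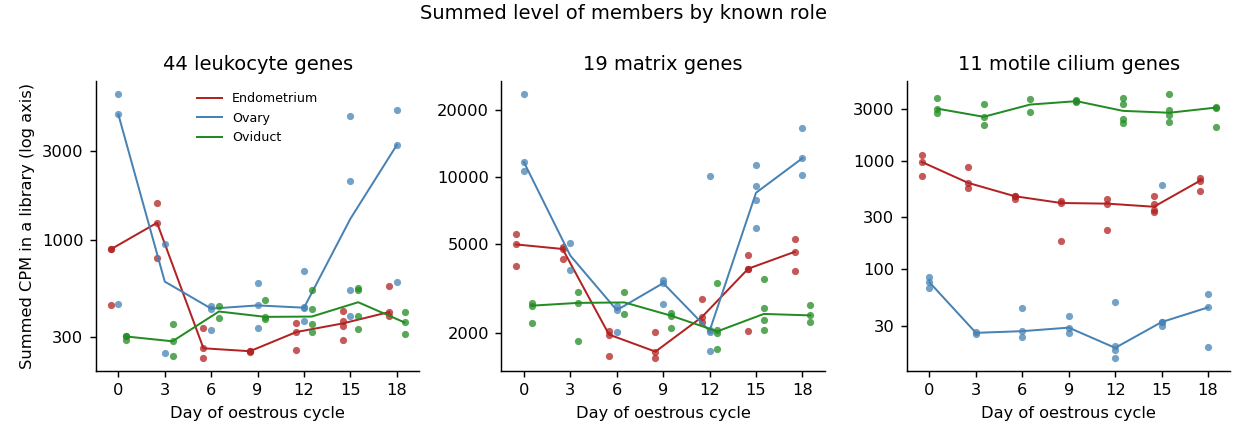
Summed CPM per library of the 44 leukocyte genes, the 19 matrix genes and the 11 motile cilium genes by day of the cycle, for endometrium, ovary and oviduct on a log axis. Dots are libraries and the line joins the day medians. The leukocyte sum of ovary on day 0 is 6056, 4718 and 452 CPM in libraries 1, 2 and 3, and the cilium sum is highest in oviduct in every library.

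The 19 matrix genes encode matrix proteins, matrix proteases, their inhibitors and matrix receptors. In the endometrium 13 fell from day 3 to day 6 and 9 rose from day 12 to day 18, beside 10% and 9.43% of all genes tested. The median log2 FC over the 19 was -1.88 early, with 1 gene above 0, and 1.82 late, with 4 genes at or below 0. Their summed level was 4761, 4869.6 and 4274 CPM on day 3, 1578, 1966 and 2030.1 CPM on day 6, 2355, 2237 and 2828 CPM on day 12 and 3779.8, 4624 and 5268 CPM on day 18. The libraries of days 3 and 6 did not overlap, and neither did those of days 12 and 18. In the oviduct the sum stayed between 1686 and 3479 CPM.

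LAMB3, the beta chain of laminin-332, a laminin of epithelial basement membranes, changed in both directions in the endometrium. It was at 99.3, 81.0 and 12.3 CPM on day 3 and at 2.43, 2.31 and 2.23 CPM on day 6. It stood at 1.73, 1.49 and 3.36 CPM on day 12 and at 88.0, 193 and 133 CPM on day 18. The low days lay within 0.990 to 3.36 CPM, and all libraries of days 0, 3 and 18 were above them. The log2 FC was -4.59 ± 0.93 from day 3 to day 6 (adjusted p = 0.00241) and 5.87 ± 0.97 from day 12 to day 18 (adjusted p = 0.00219, edgeR), and both calls held under every setting.

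MMP13, collagenase 3, was near the counting floor in the endometrium at mid-cycle. Its levels were 1.61, 8.25 and 0.935 CPM on day 3, 0.211, 0.0924 and 0.446 CPM on day 6, 0.0864, 0.107 and 0 CPM on day 12 and 5.76, 4.39 and 6.18 CPM on day 18. Every library of days 3 and 18 was above every library of days 6 and 12. The fitted log2 FC was 6.15 ± 1.35 from day 12 to day 18 (adjusted p = 0.00627, edgeR), a size that depends on the handling of counts near 0. That from day 3 to day 6 was -3.55 ± 1.13 (adjusted p = 0.0343, edgeR), and it was lost in 4 of 10 settings, without day 3 library 2 or any library of day 6, with an adjusted p of up to 0.246. MMP1, interstitial collagenase, was at 0.259, 0.213 and 0.182 CPM on day 12 and at 4.48, 17.1 and 16.7 CPM on day 18. The groups did not overlap (log2 FC 5.71 ± 1.5, adjusted p = 0.018, edgeR), but the call was lost with DESeq2 and without any one day 12 library, with an adjusted p of up to 0.0556.

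FN1, fibronectin, fell early in the endometrium and was not called late. It was at 863, 934 and 627 CPM on day 3 and at 196, 191 and 191 CPM on day 6 (log2 FC -1.88 ± 0.42, adjusted p = 0.00472, edgeR). On days 12 and 18 it was at 499, 393 and 424 CPM and at 278, 513 and 578 CPM, with overlapping libraries and a log2 FC of -0.02. SERPINE2, an inhibitor of thrombin and urokinase, went from 7.42, 15.7 and 12.4 CPM on day 3 to 2.43, 2.50 and 2.59 CPM on day 6 and from 1.30, 0.640 and 2.63 CPM on day 12 to 6.93, 24.8 and 15.9 CPM on day 18. Its log2 FCs were -2.04 ± 0.58 (adjusted p = 0.0192), lost without day 3 library 2 or any one day 6 library with an adjusted p of up to 0.0707, and 3.26 ± 0.61 (adjusted p = 0.00341, edgeR). DCN, decorin, a proteoglycan that binds collagen and one of the most abundant of the 320 genes, was at 2507, 1774 and 2142 CPM in endometrium on day 0 but did not pass between days 3 and 6 (-0.60, adjusted p = 0.117, edgeR). Other matrix genes that rose from day 12 to day 18 were those of the integrin chain ITGB3 (3.09 ± 0.67), fibulin 1 FBLN1 (2.19 ± 0.36), the hyaluronan receptor CD44 (2.0 ± 0.57) and the serine protease HTRA3 (1.92 ± 0.52), named after their values were seen.

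**Figure D4:**
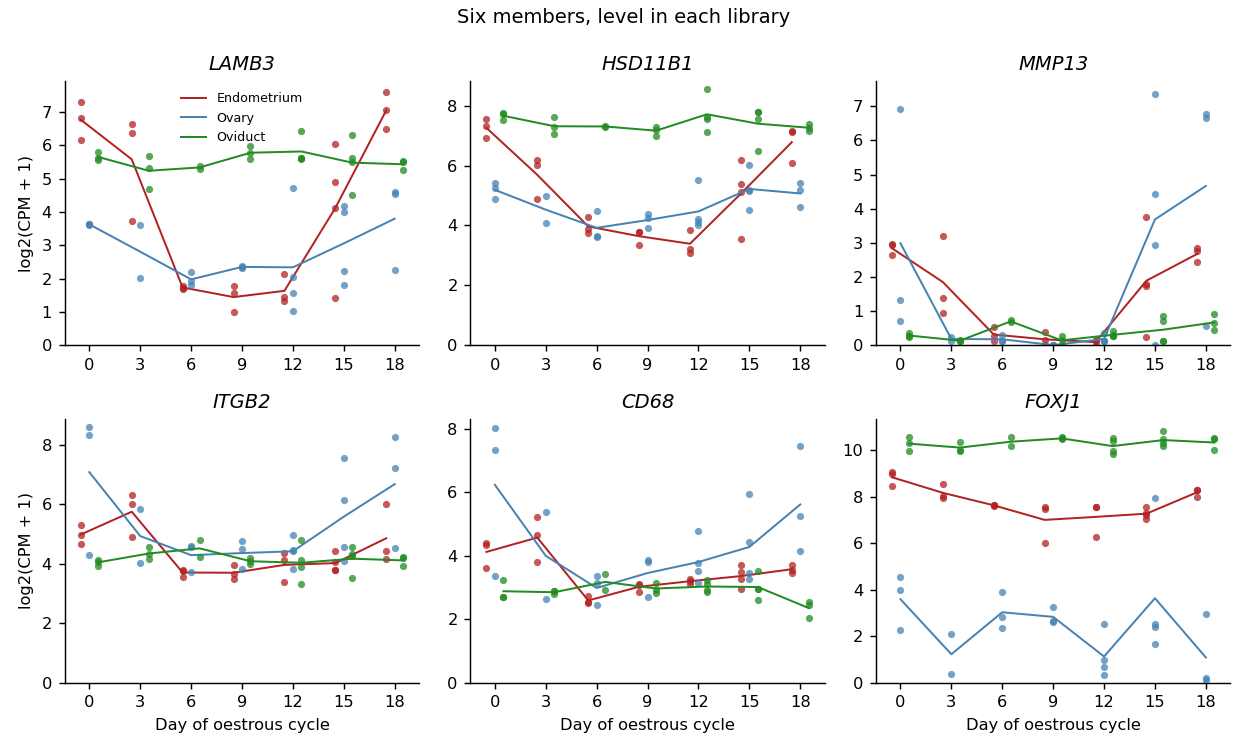
Levels of LAMB3, HSD11B1, MMP13, ITGB2, CD68 and FOXJ1 as log2(CPM + 1) in each library by day of the cycle, coloured by tissue, with lines through the day means. LAMB3 and HSD11B1 fall and return in endometrium, ITGB2 and CD68 are high in endometrium on days 0 and 3 and in 2 of 3 ovary libraries on day 0, and FOXJ1 is high throughout in oviduct.

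The motile cilium genes were not called between days within the endometrium. Of the 11, 0 were called by edgeR between days 3 and 6 in either direction (1 lower at an unadjusted p below 0.05, beside 16.3% of all genes), with a median log2 FC of -0.37 and a range from -0.91 to -0.20. Between days 12 and 18, 0 were called and 5 were higher at an unadjusted p below 0.05, beside 17.6% of all genes, with a median of 0.72. All 11 were highest in the oviduct on day 0. Their sum there was between 2082 and 4148 CPM in every library of the cycle, against 726, 979.8 and 1146 CPM in endometrium and 75.3, 67.5 and 85.3 CPM in ovary on day 0. The ovary ratios of day 9 to day 0 were close to the limit, from 0.393 to 0.49995, so that these genes joined the 320 on low ovary levels near the cut.

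FOXJ1, the transcription factor that switches on genes of motile cilia, was at 356, 497 and 538 CPM in endometrium on day 0, at 198, 199 and 195 CPM on day 6 and at 312, 255 and 314 CPM on day 18. It was at 186, 176 and 63.1 CPM on day 9. The day 0 libraries were above all libraries of days 6, 9 and 18, and the tests of day 6 over day 3 (log2 FC -0.37, adjusted p = 0.49) and of day 18 over day 12 (0.90, adjusted p = 0.0654) did not pass (edgeR). In the oviduct FOXJ1 was between 909 and 1811 CPM. In ovary it was at or below 22.1 CPM in all libraries but one, library 1 of day 15, where it was at 245 CPM. In that library the 11 cilium genes summed to 603 CPM against 29.6 to 32.5 CPM in the other 3 of the day, and the 4 ciliated cell markers to 2018 CPM against 45.5 to 99.7 CPM. On day 0 the ciliated cell markers reached 2007 CPM in ovary library 2, although the 11 cilium genes summed to 67.5 CPM there. The 4 markers are FOXJ1, CCDC39, TEKT1 and OVGP1. In oviduct they summed to 53139.5 to 169668 CPM on day 0 and to 2848 to 9406 CPM on day 9. The 11 cilium genes summed there to 2751 to 3865 CPM and to 3512 to 3657 CPM. The oviduct ratio of OVGP1 was 0.040, so the marker sum did not follow the cilium genes. The 5 epithelial markers summed to 862, 27.3, 1015 and 714 CPM in ovary libraries 1 to 4 of day 15, so that library 1 did not stand apart in them. The part of these markers in the value was not tested. No comparison tested here was of this day. Its libraries did enter the fits, in which all days of a tissue shared a single estimate of the spread.

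In the endometrium, 135 of the remaining 233 genes fell between days 3 and 6, beside 10% of all genes tested. These 233 genes, with a median log2 FC of -1.31, were in no role group. Of these, HSD11B1, the enzyme that forms cortisol from cortisone, was at 63.3, 71.6 and 28.4 CPM on day 3 and at 12.6, 13.6 and 18.3 CPM on day 6 in the endometrium. It was at 13.5, 7.47 and 8.35 CPM on day 12 and at 67.1, 137 and 140.4 CPM on day 18, with no overlap in either pair. The log2 FC was -1.68 ± 0.48 (adjusted p = 0.0193), lost without either of day 3 libraries 1 and 2 or day 6 libraries 1 and 2 with an adjusted p of up to 0.0754, and 3.48 ± 0.51 late in the cycle (adjusted p = 0.00131, edgeR). In the oviduct HSD11B1 was between 87.7 and 374 CPM.

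KSR2, a scaffold of the Ras pathway, went from 16.2, 12.7 and 6.86 CPM on day 3 to 0.739, 1.2 and 0.803 CPM on day 6 in the endometrium (log2 FC -3.49 ± 0.92, adjusted p = 0.0126, edgeR). Its late rise of 2.24 ± 0.75 (adjusted p = 0.0419, edgeR) was lost in 8 of 11 settings, without any day 12 library and without day 18 library 1 or 2 among them, with an adjusted p of up to 0.175. CYP7A1, the rate-limiting enzyme of bile acid synthesis, was at 4.65, 15.2 and 1.35 CPM on day 3 and at 0.106, 0.0924 and 0.535 CPM on day 6, without overlap (-4.53 ± 0.98, adjusted p = 0.0037, edgeR). APOE, the lipoprotein ligand, fell by 1.38 on the log2 scale (SE 0.25, adjusted p = 0.00114, edgeR), from 433, 658 and 364 CPM to 172, 132 and 182 CPM. SMPDL3A, an acid phosphodiesterase, fell by 2.80 on the log2 scale (SE 0.72, adjusted p = 0.0109, edgeR), and the call was lost without day 3 library 2 (0.0996). VIM, vimentin, a filament protein of mesenchymal cells, was at -1.39 ± 0.37 between days 3 and 6 (adjusted p = 0.0135), lost without day 6 library 1 or 2 with an adjusted p of up to 0.0568, and at 1.60 ± 0.37 between days 12 and 18 (adjusted p = 0.00862, edgeR).

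RBP4, the carrier of retinol, reached high late levels in the endometrium that varied between libraries. It was at 254, 22.4 and 1251 CPM on day 12, at 8471, 122, 7831 and 7747 CPM on day 15 and at 7548, 3269 and 2285 CPM on day 18. The day 18 libraries were above those of day 12, but the test did not pass (log2 FC 3.02, adjusted p = 0.0801, edgeR), nor did that of day 6 over day 3 (0.76, adjusted p = 0.695). NPTX1, neuronal pentraxin 1, was at 2.07, 0.427 and 1.91 CPM on day 12 and at 130.2, 44.6 and 38.9 CPM on day 18 (5.55 ± 1.62, adjusted p = 0.0234, edgeR), and the call was lost without any one day 12 library or day 18 library 1, with an adjusted p of up to 0.0771. Its place among the 320 rests on 1 library, since on day 0 it was at 0.101, 29.6 and 0 CPM. ANXA2, annexin A2, was at 784, 903 and 592 CPM on day 0 and was not called in any of these comparisons.

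Some genes known here by identifier only moved as far as the named ones. ENSSSCG00000013714, which had the lowest endometrium ratio of all (0.00712), was at 411, 614 and 91.3 CPM on day 3, at 1.48, 2.22 and 1.78 CPM on day 6 and at 111, 589 and 355 CPM on day 18. No library of day 3 or 18 was near those of day 6, and the log2 FCs were -7.46 ± 1.27 (adjusted p = 0.000721) and, from day 12 on, 5.13 ± 1.1 (adjusted p = 0.00585, edgeR). ENSSSCG00000007379 fell by 4.56 on the log2 scale (SE 0.57, adjusted p = 0.000112, edgeR) between days 3 and 6, and its late log2 FC was 1.59 ± 0.50 (adjusted p = 0.0314), lost in 5 of 11 settings, without any one day 12 library or day 18 library 2 or 3, with an adjusted p of up to 0.113. ENSSSCG00000006589 was at 0.518, 0.107 and 0 CPM on day 12 and at 61.9, 14.2 and 5.49 CPM on day 18 (fitted log2 FC 6.92 ± 1.62, adjusted p = 0.011, edgeR). ENSSSCG00000023735, among those with the lowest ovary ratios, was called in no comparison.

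Between days 12 and 18, 107 of the 320 genes rose in the endometrium and 3 fell, beside 9.43% and 10.8% of all genes tested. The median log2 FC was 0.75 against 0.03 over all genes, and 272 genes had a value above 0. For 151 genes all day 18 libraries were above all day 12 libraries, beside 20.4%. The count was 58 without day 12 library 2 and 70 without day 18 library 3, beside 6.23% and 5.4% of all genes in those fits. PECAM1 rose as well, from 100.7, 119 and 218 CPM to 296, 392 and 315 CPM (log2 FC 1.11 ± 0.39, adjusted p = 0.0493, edgeR), and its part was again not tested. Of the 201 genes that fell between days 3 and 6, 70 rose between days 12 and 18 and 131 were not called higher. The 3 that fell late were MYH11, the smooth muscle myosin heavy chain, CAVIN3, a coat protein of caveolae, and PDGFRL. MYH11 was at 77.9, 45.7 and 106 CPM on day 12 and at 29.2, 33.6 and 36.9 CPM on day 18 (log2 FC -1.28 ± 0.44, adjusted p = 0.0462, edgeR). The call on MYH11 was lost in 6 of 11 settings, without day 12 library 1 or 3 or any one day 18 library among them, with an adjusted p of up to 0.183, and the other 4 smooth muscle markers were not called lower.

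In the ovary, 13 of the 320 genes rose from day 12 to day 18 and 0 fell, beside 0.62% and 2.31% of all genes tested. At an unadjusted p below 0.05, 159 were higher, beside 10.5%. The median log2 FC was 1.15 against 0.03 over all genes, and 304 genes had a value above 0. All day 18 libraries were above all day 12 libraries for 52 genes, beside 5.99%. The 13 calls depended on the libraries: without day 12 library 1 there were 120, beside 9.85% of all genes in that fit, and without any other day 12 or day 18 library there were 0, beside 0% of all genes. Day 12 library 1, with its luteal markers at 207 CPM, had a higher level of the 320 genes than the other day 12 libraries, and day 18 libraries 1, 2 and 3 had luteal sums of 2645, 631 and 329 CPM. Their part was not tested.

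Among the 13, MMP1 was at 0.292, 1.55, 0.599 and 0.533 CPM on day 12 and at 198, 2.33 and 28.2 CPM on day 18 in the ovary. The libraries did not overlap, and day 18 library 2 was far below the other 2 (log2 FC 6.52 ± 1.71, adjusted p = 0.0487, edgeR). IL7R was at 3.90, 1.03, 0.770 and 0.622 CPM and at 78.3, 3.36 and 30.2 CPM, so that day 18 library 2 lay below day 12 library 1 (4.59 ± 1.22, adjusted p = 0.04999, edgeR). In the ovary, without any one library of these days other than day 12 library 1, both calls were lost, with adjusted p values of up to 0.254.

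The other genes called in the ovary, which lost the call in the same way, included TPBG, the trophoblast glycoprotein gene (1.48), PRCP, a lysosomal carboxypeptidase gene (1.35), CCDC112 (1.61), and ENSSSCG00000001081, ENSSSCG00000003437 and ENSSSCG00000003781 with log2 FCs of 2.49 ± 0.57, 4.61 ± 1.21 and 4.41 ± 1.02 (adjusted p = 0.0443, 0.0487 and 0.0443, edgeR). Of the 13, 9 were also called higher in the endometrium, among them MMP1, TPBG, PRCP, CCDC112 and ENSSSCG00000001081, and 259 of the 320 were above 0 in both tissues. ENSSSCG00000001081 was at 58.7, 49.0 and 47.8 CPM on day 12 and 287, 295 and 457 CPM on day 18 in the endometrium. Its log2 FC there was 2.68 ± 0.50 (adjusted p = 0.0033, edgeR).

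**Figure D5:**
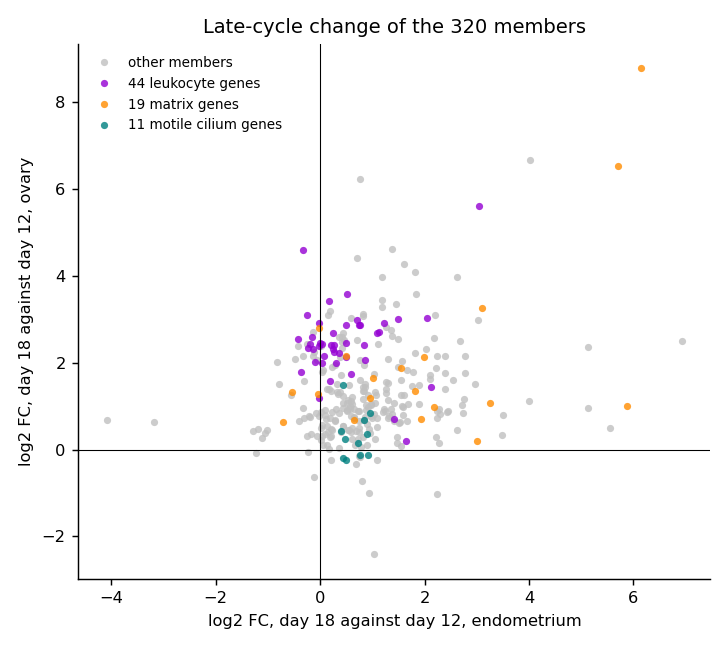
Log2 FC of day 18 over day 12 for each of the 320 genes in endometrium (horizontal axis) and ovary (vertical axis), with leukocyte, matrix and cilium genes coloured and all others in grey. Most points, 259, lie above 0 on both axes. The leukocyte genes lie higher on the ovary axis, with a median of 2.42, than on the endometrium axis, with a median of 0.27.

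The leukocyte genes of the ovary were split by library more than by day. Their summed level was 6056, 4718 and 452 CPM on day 0, 949 and 246 CPM on day 3, 442, 428 and 330.4 CPM on day 6 and 591, 337 and 445 CPM on day 9. It was 684, 436, 429.9 and 368 CPM in the day 12 libraries, 539, 392, 4626 and 2062 CPM in those of day 15, and 3236, 595 and 4995 CPM in those of day 18. Days 0, 15 and 18 thus each held high libraries beside low ones. CD68 followed, with 258, 159.8 and 9.24 CPM on day 0 against 12.9, 5.56 and 13.5 CPM on day 9, so that day 0 library 3 lay within the day 9 range. Day 0 library 1, the highest, had a summed level of the granulosa markers of 108 CPM against 3265 and 8189.6 CPM in libraries 2 and 3. Its sum of CYP11A1 and LHCGR, which are also on the follicle list, was 326 CPM against 1991 and 2566 CPM. On day 18 the granulosa sum was 33.6, 4376 and 267 CPM and the leukocyte marker sum was 136, 44.3 and 406 CPM.

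Between days 12 and 18, all 44 leukocyte genes had a log2 FC above 0 in the ovary, from 0.19 for LY96 to 5.61 for CSF3R, with a median of 2.42. Only IL7R among them passed the test, beside 0.62% of all genes tested, and 40 did at an unadjusted p below 0.05, beside 10.5%. DESeq2 called 30, beside 4.74%, and for 12 the libraries did not overlap, beside 5.99%. Without day 18 library 3 the median was 1.75 and 0 were called, and without day 12 library 1 there were 8. The shares of all genes in those fits were 0% and 9.85%. CSF3R was at 1.07, 2.15, 0.513 and 0.444 CPM on day 12 and at 62.4, 2.99 and 118 CPM on day 18, the lowest day 18 library being close to the highest of day 12.

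Other genes with a low ovary ratio had the same division of the day 0 libraries. SMPDL3A was at 211, 278 and 3.66 CPM on day 0 and at 2.80, 1.0 and 1.32 CPM on day 9. CYP7A1 was at 90.5, 35.2 and 1.19 CPM and at 0.247, 0.0772 and 0.088 CPM, and ENSSSCG00000015405 at 433, 276 and 7.14 CPM and at 8.82, 4.71 and 3.87 CPM. APOE was at 11610.4, 8586 and 593 CPM on day 0 and at 424, 366 and 545 CPM on day 9. In each of these genes day 0 library 3 was far below libraries 1 and 2. FN1 was at 5030.3, 15867 and 494 CPM on day 0, and library 3 was below all 3 day 9 libraries (1158, 748 and 1480.4 CPM). MMP13 was at 1.49, 121 and 0.641 CPM on day 0 and at 0 in all day 9 libraries, so that library 2 alone was high and library 1 was low with library 3.

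SERPINE2 was an exception to this division. It was at 316, 2486 and 5096 CPM on day 0 and at 333, 594 and 328 CPM on day 9 in the ovary, so that it was day 0 library 1 that lay in the day 9 range. This library was also the one with the granulosa sum of 108 CPM. On day 12 SERPINE2 was at 4085 CPM in library 1 and at 374 to 545 CPM in the others, and on day 18 at 614, 7500.1 and 995 CPM. In the same libraries the granulosa sum was 2349 CPM against 80.8 to 121 CPM on day 12, and 33.6, 4376 and 267 CPM on day 18, so that the highest SERPINE2 library of each of these 3 days was also the highest in the granulosa sum. The part of the follicle content was not tested.

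In the oviduct, 28 of the 314 genes tested rose from day 12 to day 18 and 19 fell, beside 13.4% and 8.98% of all genes, with a median log2 FC of 0.09. All day 18 libraries were above all day 12 libraries for 19 genes, beside 9.35%. The count of 28 became 3 without day 18 library 2, beside 3.85% of all genes in that fit, and 8, 11 and 17 without day 12 libraries 2, 3 and 4, beside 8.31%, 8.64% and 9.33%. Of the genes that rose in the endometrium, 11 also rose in the oviduct and 7 fell there. VIM was one that rose in both (oviduct log2 FC 1.4 ± 0.40, adjusted p = 0.0204, edgeR), a call lost without day 12 library 2 or 3 or day 18 library 2, with an adjusted p of up to 0.14.

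The difference between tissues was tested as the day 18 over day 12 change in endometrium or ovary minus that in oviduct, in a fit of all 66 libraries that took the tissues as unpaired, although they share gilts. With day and library number as a block the counts below of 28 and 98 were 33 and 80, beside 3.77% and 9.55% of all genes. Against the endometrium, 28 of the 320 genes had a higher change than in oviduct and 2 a lower one, beside 3.87% and 5.49% of all genes. The median difference was 0.69, and the count was 14 without oviduct day 18 library 2, beside 1.44% of all genes in that fit. LAMB3 differed by 6.10 ± 1.09 (adjusted p = 0.000416, edgeR) and HSD11B1 by 3.83 ± 0.56 (adjusted p = 3.76e-05, edgeR), and both held under all 18 settings. CFI, AGT, the angiotensinogen gene, and IL6R, an interleukin 6 receptor gene, had differences of 2.22 ± 0.59, 3.32 ± 1.05 and 3.31 ± 0.92, and these 3 were named after their values were seen. NPTX1 (5.97, adjusted p = 0.0302) lost the call in 6 of 18 settings, without endometrium day 12 library 2 or 3, endometrium day 18 library 1, oviduct day 12 library 1 or oviduct day 18 library 2 or 3, with an adjusted p of up to 0.0984. DLEC1 was the cilium gene among the 28 (1.99 ± 0.67, adjusted p = 0.0487, edgeR). VIM, which rose in both tissues, had a difference of 0.23.

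Against the ovary, 98 of the 320 genes had a higher change than in oviduct and 1 a lower one, beside 9.43% and 11.1% of all genes, and the median difference was 1.19 against 0.08 over all genes. The count was 36 without ovary day 18 library 3, 56 without oviduct day 18 library 2 and 142 without ovary day 12 library 1, beside 6.09%, 4.89% and 15.6% of all genes in those fits. Leukocyte genes made up 30 of the 98, with a median difference over the 44 of 2.64. Of these 44, 8 remained called without ovary day 18 library 3 and 32 without ovary day 12 library 1. In a fit of only the groups compared 5 did, beside 1.31% of all genes in that fit. CSF3R (6.26 ± 1.67, adjusted p = 0.00636, edgeR) and IL7R (4.56 ± 1.13, adjusted p = 0.00355, edgeR) kept the call under all 19 settings, and so did ENSSSCG00000003781 (4.91 ± 0.90, adjusted p = 0.00018, edgeR). CD68 (2.88, adjusted p = 0.0169) lost it in 4 of 19, with the replicate block, in a fit of only the groups compared and without ovary day 18 library 3 or oviduct day 18 library 2, with an adjusted p of up to 0.248, and ITGB2 (2.55, adjusted p = 0.039), APOE (2.22, adjusted p = 0.0406), SMPDL3A (4.18, adjusted p = 0.0324) and MMP13 (7.32, adjusted p = 0.0427) lost it in 13 of 19, 9 of 19, 8 of 19 and 12 of 18 settings. Ovary day 18 library 3 was among the libraries without which each of these 4 lost it. Both comparisons share the oviduct libraries, and 14 genes were higher in each, with a symbol FOXP1, GAB2, NHS, PDGFC and TENT5A. The number of all genes higher in each is not given here, so nothing is read from the 14.

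Lists of genes for pathways of the cycle placed the 320 in a wider setting. The list of follicle and steroid synthesis (9 of 16 genes in the table), that of oestrogen and progesterone response (12 of 13), that of the cell cycle (12 of 20) and that of ion and water channels (7) held 0 of the 320 genes. The matrix list held FN1 and MMP13 among its 12 genes in the table, and the immune list held CD68, ITGB2, TYROBP and CSF1R among its 13. In the endometrium between days 3 and 6, 9 of 12 tested immune genes fell, namely TYROBP, TLR4, IL1A, CXCL2, TLR2, PTPRC, CD14, CD68 and ITGB2, and 6 of 12 matrix genes fell, MMP2, MMP9, LOX, MMP7, MMP13 and FN1. Their median log2 FCs were -2.07 and -1.18, and of all genes tested 10% were called lower. Of 11 hormone response genes 3 fell (FOS, C3 and LTF) and IGF1 rose, 1 of 6 channel genes rose (SCNN1A), and 0 of 12 cell cycle genes and 0 of 3 steroid synthesis genes were called. From day 12 to day 18, 4 immune genes (TLR4, S100A8, CXCL2 and TLR2) and 4 matrix genes (MMP9, VCAN, MMP7 and MMP13) rose in the endometrium, beside 9.43% of all genes. In the oviduct 6 of 11 tested matrix genes rose over these days, beside 13.4%, and 0 of 11 immune genes. The median log2 FC of the matrix list was 0.15 in endometrium and 1.55 in oviduct. The test of the difference between them called MMP7 higher and COL1A2 and COL3A1 lower. From the immune list it called CXCL2 higher.

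PTPRC, the leukocyte common antigen, was not among the 320 genes, since its ratio was 0.628 in endometrium, 0.132 in ovary and 2.003 in oviduct, but it had a log2 FC of -1.76 ± 0.38 from day 3 to day 6 in the endometrium (adjusted p = 0.00338, edgeR). Among the cell type markers, the same comparison called PTPRC and CD68 lower and KRT8 higher, and 0 of 4 ciliated cell, 0 of 5 smooth muscle, 0 of 1 endothelium, 0 of 1 luteal and 0 of 2 blood markers. In the day 18 over day 12 difference between ovary and oviduct, 7 of 12 immune genes were higher, beside 9.43% of all genes tested. There 6 of 12 cell cycle genes were lower, beside 11.1%. Within the oviduct 8 of the 12 cell cycle genes rose over these days, beside 13.4% of all genes tested, with a median log2 FC of 2.53. Within the ovary 0 of the 12 were called, beside 0.62% higher and 2.31% lower, with a median of -0.33. The 2 members of the leukocyte list (CD68 and CSF1R), the 1 of the ciliated list (FOXJ1) and the 1 of the smooth muscle list (MYH11) are described above.

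Of the 320 genes, 209 were matched to the RefSeq gene order of a later pig assembly (Sscrofa11.1) than the one used for alignment. Neighbours in that order formed 7 pairs, GIMAP6 with GIMAP4, BBOX1 with FIBIN, CSF2RB with NCF4, C2 with CFB, SLA-DMB with SLA-DMA, SLA-DMA with SLA-DOA, and LAMB3 with CAMK1G. The genes of 5 of these pairs are immune genes. Reads of such neighbours, or of close relatives such as GIMAP6 and GIMAP4, could be shared in counting, and how the counting treated shared reads and the strand is not given in the sources used here.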

How the data were processed

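Per the study's methods, poly-A RNA was sequenced as paired ends, reads were checked with FastQC, trimmed and aligned with TopHat2 to the Sscrofa10.2 pig genome with the Ensembl transcriptome. The submitters' processing notes also name featureCounts, Cufflinks, Cuffdiff and edgeR. The authors deposited raw counts per Ensembl gene without normalization, in 66 columns. Each column name gave a tissue, a day and a number, but the numbers were not those of the sample titles, so which labelled sample of a group a column holds is not known. Of 67 labelled samples, 1 of endometrium on day 12 was not analysed here. Symbols came from the pig gene name table.

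CPM was computed from these counts and library totals. The median log2 level per library used a pseudocount of 1 CPM. Tests were edgeR 4.0.16 (R 4.3.3) quasi-likelihood fits with TMM factors, robust dispersions and the filterByExpr filter (minimum count 10), 1 fit per tissue with day as factor, over all genes passing it, with Benjamini-Hochberg adjusted p below 0.05 (a call). A joint fit of the 66 libraries tested the difference between tissues. Errors of log2 FC are standard errors worked back from the log2 FC and the F statistic of its test. They therefore include the spread between libraries. Floors (3 counts) cover counting error only. Scripts were tested on simulated data.

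The members, the gene lists and the role groups were chosen with earlier results of these data known. Genes named with full values were the members in the fixed lists (follicle and steroid synthesis, hormone response, cell cycle, matrix, immune, channels and the cell type markers), the 6 lowest ratios in endometrium and in ovary at a mean of at least 10 CPM on day 0, the 6 largest called late rises in each of these tissues, and the 4 highest mean levels in each, apart from genes not reported here. The study's own tests were run on FPKM with Cuffdiff, whereas counts were used here.

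Alternatives were DESeq2 1.42.0 size factors and Wald test, no filter on low counts, the replicate number as a block, a fit of only the groups compared, each library left out in turn and, for the choice of members, a fold limit of 0.4, 0.1 CPM added, median CPM and TMM scaling. None of the 74 same-group pairs of libraries was identical (0), and chi-squared per degree of freedom was at least 10.8.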

Additional observations from a re-analysis of the deposited data

Results flagged for a closer look

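In groups of 4 libraries, a library was singled out where its gap to the nearest of the others was above Dixon's 95% critical value of the range. Over 195 checks of a measure in a group, chance alone gives about 1 in 20. There were 39 such cases, 18 of them in library 1 of ovary on day 12.

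In that library the median log2(CPM + 1) of the 320 genes was 4.26 (2.95 to 3.00 in the other 3), the cilium sum 49.6 CPM (15.1 to 19.4), and the matrix sum 10177 CPM (1664 to 2058). It held DCN at 2525 CPM (117 to 232), SERPINE2 at 4085 CPM (374 to 545), MYH11 at 233 CPM (14.5 to 24.5), LAMB3 at 25.5 CPM (1.03 to 3.10), HSD11B1 at 45.0 CPM (15.3 to 17.6), ENSSSCG00000001081 at 85.0 CPM (6.55 to 11.4) and TYROBP at 30.7 CPM (14.7 to 16.2). Lower levels set apart in the same library were those of SMPDL3A at 10.4 CPM (0.862 to 2.14), ENSSSCG00000023735 at 10.23 CPM (0.172 to 0.941), ENSSSCG00000013714 at 6.72 CPM (0 to 0.266), FOXJ1 at 4.77 CPM (0.259 to 0.977), RBP4 at 4.68 CPM (0 to 0.266), IL7R at 3.90 CPM (0.622 to 1.03) and KSR2 at 1.56 CPM (0 to 0.0888). MMP13 at 0.292 CPM (0.0856 to 0.0888) was 3 counts against 1 in each of the others, which cannot be told from 0 at this depth.

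On day 15, ovary library 1 had a cilium sum of 603 CPM (29.6 to 32.5), FOXJ1 at 245 CPM (2.19 to 4.69), ENSSSCG00000013714 at 154 CPM (1.24 to 7.68), ENSSSCG00000003781 at 55.2 CPM (1.21 to 6.23) and ENSSSCG00000007379 at 32.3 CPM (6.77 to 9.81). Ovary library 3 of that day had ENSSSCG00000006589 at 662 CPM (9.90 to 64.2), MMP13 at 165 CPM (0 to 20.7), IL7R at 79.8 CPM (2.0 to 12.6) and CYP7A1 at 25.3 CPM (0.0952 to 1.13).

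In endometrium on day 15, library 2 was low in the median of the 320 genes at 3.49 (4.01 to 4.11) and in RBP4 at 122 CPM (7747 to 8471), and high in APOE at 213 CPM (151 to 160.1). Library 1 had FN1 at 1338 CPM (281 to 444) and library 4 had MMP1 at 11.2 CPM (0 to 0.371).

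In oviduct on day 12, library 1 had FN1 at 376 CPM (100 to 144) and ENSSSCG00000023735 at 3.05 CPM (0 to 0.391), and library 2 had LAMB3 at 85.5 CPM (47.0 to 48.5). On day 15, ENSSSCG00000003437 was at 0.496 CPM in library 4 (0 in the others). A further 3 oviduct cases were of 3 counts or fewer and cannot be told from 0, namely ENSSSCG00000003437 at 0.0984 CPM in library 1 and MMP1 at 0.223 CPM in library 2 of day 12 (0 in the others), and ENSSSCG00000023735 at 0 CPM in library 1 of day 15 (0.276 to 0.297).

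The change from day 12 to day 18 differed from that of the oviduct, by the test of the difference itself, for 28 genes in endometrium and for 98 in ovary where the tissue had the higher value (edgeR, adjusted p below 0.05). The shares of all genes tested were 3.87% and 9.43%. For 2 genes in endometrium and 1 in ovary the tissue had the lower value, beside 5.49% and 11.1%.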

How the results depend on the processing

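The count of 201 genes lower in endometrium on day 6 than on day 3 stayed within 153 to 202 with 1 library left out. Over all genes, 887 of 15566 and 1546 of 15561 were called lower in the fits that gave 153 and 202. The 107 higher on day 18 than on day 12 ranged from 58 (without day 12 library 2) to 97, beside 6.23% and 7.23% of all genes in those fits. The ovary gave 0 genes lower on day 6, 1 with DESeq2 and 1 with only the groups compared, and 0 with any library left out. Over all genes, DESeq2 called 6 of 15638 lower there, and the fit of only the groups compared 13 of 13899. Its 13 genes higher on day 18 became 0 without the filter on low counts and 0 with only the groups compared. The shares of all genes in those fits were 0.00481% and 0%. The 13 became 100 with the DESeq2 Wald test, beside 4.74% of all genes in that fit. With 1 library left out they became 0 to 120, beside 0% and 9.85%. The 28 of the oviduct became 12 with only the groups compared, beside 5.46% of all genes in that fit. With 1 library left out they became 3 to 36, beside 3.85% and 11.9%. The difference between endometrium and oviduct (28) became 47 with only the groups compared, beside 3.66% of all genes in that fit. With 1 library left out it became 14 to 30, beside 1.44% and 3.81%. That between ovary and oviduct (98) became 15, beside 1.31%, and 36 to 142, beside 6.09% and 15.6%. The rule gave 716 genes with 0.1 CPM added (299 of the 320 among them), 134 at a fold limit of 0.4, 346 with median CPM (246 shared), and 286 to 392 with 1 library left out.

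Same-numbered libraries of different days of a tissue were correlated at -0.513 to 0.173 in their deviations, and 5 of 16 pairs were above 0.1. Those of different tissues of a day were correlated at -0.0671 to 0.222, with 8 of 13 above 0.1. Not every pair passed 0.1 and the number was not tied to a gilt, so it was not taken to pair the libraries. With it as a replicate block the counts were 205 and 110 in endometrium, 0 and 0 in ovary, 0 and 22 in oviduct, and 33 and 80 for the differences of endometrium and ovary from oviduct. Over all genes these fits called 1542 of 15341 lower and 9.17% higher in endometrium, 0 and 0% in ovary, and 0 and 12.4% in oviduct. For the 2 differences the shares were 3.77% and 9.55%. Of 53 called comparisons of named genes 26 kept the call in every setting, 166 single values lost it and 0 turned direction; the cause was not tested. At this depth, levels under 0.223 to 0.335 CPM could not be told from 0.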
